A study of Arabidopsis thaliana with 42 samples.

Results

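REVOLUTA (REV) is a class III homeodomain-leucine zipper (HD-ZIPIII) transcription factor that promotes the upper, adaxial side of leaves and takes part in vascular and meristem development. In the 35S::GR-REV line it is fused to the hormone-binding domain of the glucocorticoid receptor (GR), which holds the fusion in the cytoplasm until the steroid dexamethasone (DEX) is added. The measurements described here compare that line with wild type before any DEX was given, and so concern what set the line apart at the start of the induction experiment.

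Of the 42 arrays of the series, 6 make up this comparison: 3 replicates of 35S::GR-REV in the Columbia ecotype and 3 of untransformed Columbia grown on the same day. All were whole Arabidopsis seedlings, 7 days old, grown in liquid MS medium with sucrose, about 50 seeds to a flask, and frozen at 0 min, just before DEX went into the other flasks. Each array therefore holds RNA of many pooled seedlings, and the labels tie each time point to a flask of its own but all 6 samples to one day, so day-to-day variation of this difference was not sampled. The p-values rest on the spread between replicates within all 14 groups of the series, except where the 6 arrays alone are named. The transgene is driven by the 35S promoter, which is active in most tissues, a single line carries it, and the control is plain Columbia rather than a line with the GR domain alone. Other arrays are used below only for contrast: both genotypes at 30, 60 and 120 min after 50 µM DEX, and the 35S::KAN1-GR line at 0 min, which carries a GR fusion of KANADI1 and was grown on a second day with wild type of its own.

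The values are log2 GCRMA expression values that were centred for each probe set, so that 0 stands for the middle of the wild-type 0 min samples of both growth days and no value gives an absolute level; the labelled tissue could therefore not be checked from the levels of its markers. Tests ran over 16129 probe sets of the Affymetrix array with limma, and a gene is said to be higher or lower where its p-value, adjusted by Benjamini-Hochberg over all of them, was below 0.05. A stretch of chromosome 3 from AT3G16320 to AT3G19590 is raised as a block in the line. It is left out of the gene counts, lists and largest differences below, but not of the adjustment of p-values. At its ends the log2 difference was -0.09 in AT3G16310 just outside and 0.55 in AT3G16320 just inside, and 1.30 in AT3G19590 just inside and -0.09 in AT3G19630 just outside. Outside it 14790 genes were tested, one probe set each.

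In whole seedlings fewer cells of a type and less RNA per cell cannot be told apart, which holds for every tissue-specific gene below. Correlations between arrays were taken over all tested probe sets, those of the stretch included. The 3 GR-REV arrays averaged 0.76, 0.75 and 0.67 with the other arrays of their group. The wild-type arrays averaged 0.48, 0.51 and 0.41. Centring on wild type takes signal shared by its arrays out of the values but leaves the line difference in GR-REV. The correlations therefore cannot show which group had the closer replicates. GR-REV replicate 3 stood apart from the others of its group in its plastid transcripts: the median of 65 plastid probe sets was -0.83 in replicates 1 and 2 and 0.10 in replicate 3, against -0.21, -0.52 and -0.62 in wild type. The part of these differences between replicates in the results below was not tested, and counts, list medians and named genes whose call or size moved most without 1 array are given with that value.

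Before DEX, the GR-REV seedlings held more transcript of defence, jasmonate and touch genes than wild type, and less of Casparian strip, root hair, cell wall, aquaporin and photosynthesis genes. These groups were not equally stable. With the spread of the 6 arrays alone 6 of 15 Casparian strip and suberin genes passed. In that fit 3 of 22 jasmonate, 2 of 10 root hair and 0 of 26 photosynthesis genes did. At an unadjusted p of 0.05 the same fit by limma had 17 jasmonate genes higher. It had 6 Casparian strip and suberin, 4 root hair and 17 photosynthesis genes lower. Outside the chromosome 3 stretch, 982 of the 14790 genes were higher (6.64%) and 1241 were lower (8.39%), and the median log2 difference over all of them was -0.01. A 2-fold or larger difference was met by 283 of the higher genes (1.91%) and 240 of the lower ones (1.62%). The 3 arrays of one group lay wholly above or below those of the other for 1758 genes in the upward direction (11.9%) and 2264 in the downward direction (15.3%). Counts for the lists and families below are to be read beside these shares of all genes. Of the 2223 genes called (15.0%), 274 belong to one of the functional lists or gene families described here, or 12.3%. After quantile normalisation of the arrays 961 genes were called, and with the spread taken from the 6 arrays alone 703. Quantile normalisation was applied to values already centred on wild type. Their SD over the tested probe sets was 0.41, 0.37 and 0.27 in the wild-type arrays. It was 0.57, 0.60 and 0.57 in the GR-REV arrays. Giving all arrays 1 distribution can itself change differences between the groups, so counts after it do not measure stability alone. At an unadjusted p of 0.05, 4070 genes (27.5%) passed.

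The targeted gene itself was far above wild type. REV stood at 0.40, 0.22 and 0.08 in the wild-type replicates and at 4.21, 4.42 and 4.38 in the GR-REV replicates. The groups were far apart. The array cannot tell transgene from endogenous transcript. Among the other HD-ZIPIII genes, PHV was slightly higher (log2 difference 0.47 ± 0.15, SE, limma adjusted p = 0.037), and the values were -0.32 for PHB, -0.21 for ATHB8 and -0.06 for CNA, none past the test.

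ZPR1, a LITTLE ZIPPER gene whose small protein binds HD-ZIPIII factors and is switched on by them, was already higher before DEX. Its values were 0.67, 0.03 and -0.32 in wild type and 1.53, 1.26 and 1.85 in GR-REV, with no overlap. The log2 difference was 1.42 ± 0.22 (limma adjusted p = 1.93e-05), and in the samples frozen 30, 60 and 120 min after DEX it reached 3.46, 5.0 and 5.50. ZPR3 was not past the test at 0 min (-0.24).

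The HD-ZIPII genes, which include direct targets of REV in the adaxial programme, did not share that difference before DEX: of 7 tested, 0 were higher, 1 was lower, and the median was -0.08. The lower one was HAT1, at 0.17, -0.12 and 0.08 in wild type against -1.23, -0.91 and -0.95 in GR-REV. It changed sign after DEX, from -1.07 at 0 min to 1.15 at 30 min, both past the test. For 6 of the 7 the difference at 0 min was below the mean of the differences at 30, 60 and 120 min by limma's test of that contrast, which was added after the values were seen. Among 11 leaf polarity genes, ATS, a KANADI-family gene, fell by 1.1 and ARF3, an auxin response factor of the lower leaf side, fell by 0.51, and 0 rose.

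Jasmonate is the wound and herbivory hormone of plants; it is made from plastid fatty acids, and its active form leads to the destruction of JAZ repressors, whose own genes are then transcribed. Of 31 genes listed for its synthesis and response, 23 were tested, 1 of them in the chromosome 3 stretch. Of the other 22, 17 were higher and 0 lower, with a median log2 difference of 1.38, where 6.64% of all genes were higher. In 15 of the 22 all 3 GR-REV arrays exceeded all 3 wild-type arrays, against 11.9% of all genes.

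The largest difference in the group was that of TAT3, a tyrosine aminotransferase gene used as a jasmonate marker. It stood at -1.26, 0.68 and -1.10 in wild type and at 3.44, 3.94 and 2.55 in GR-REV, and the groups were far apart (limma adjusted p = 1.9e-06).

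Genes of the plastid steps of jasmonate synthesis were higher. LOX3, a lipoxygenase, stood at -1.28, -0.10 and 0.10 in wild type and at 2.48, 3.17 and 1.04 in GR-REV, a difference of 2.66 ± 0.64 (limma adjusted p = 0.00356). AOS, allene oxide synthase, stood at -0.27, -0.03 and -0.44 against 1.4, 1.65 and 0.42. AOC3, allene oxide cyclase, stood at -1.04, 0.01 and -0.53 against 1.06, 1.68 and 0.26. LOX2 was higher by 1.07 as well, and in each of these genes GR-REV replicate 3 was the lowest of its group.

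Genes that act on the active hormone or respond to it followed the same order of replicates. CYP94C1, which oxidises the hormone, stood at -0.04, 0.04 and -0.06 in wild type and at 1.75, 3.01 and 1.48 in GR-REV. CYP94B3, which acts in the same breakdown route, was higher by 2.5 ± 0.56 (limma adjusted p = 0.00198) with values from 0.23 to 3.24. JAZ1, a repressor, was at -0.73, 0.04 and -0.43 against 1.29, 1.46 and 0.27. The 5 members not past the test were CORI3 (0.69), MYC2 (0.41), JAZ12 (0.12), JAR1 (-0.17) and COI1 (-0.07). Of these MYC2 is the main transcription factor of the pathway, COI1 its receptor and JAR1 the enzyme that makes the active form.

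The median over the 22 jasmonate genes was -0.57, 0.03 and -0.22 in the wild-type arrays and 1.03, 1.56 and 0.21 in the GR-REV arrays. The groups did not overlap, but GR-REV replicate 3 was much nearer to wild type than the others. The count of 17 fell to 7 without GR-REV replicate 2, to 11 without wild-type replicate 1 or wild-type replicate 3, and stayed at 17 without GR-REV replicate 3. With the spread taken from the 6 arrays alone, 3 passed.

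**Figure D1:**
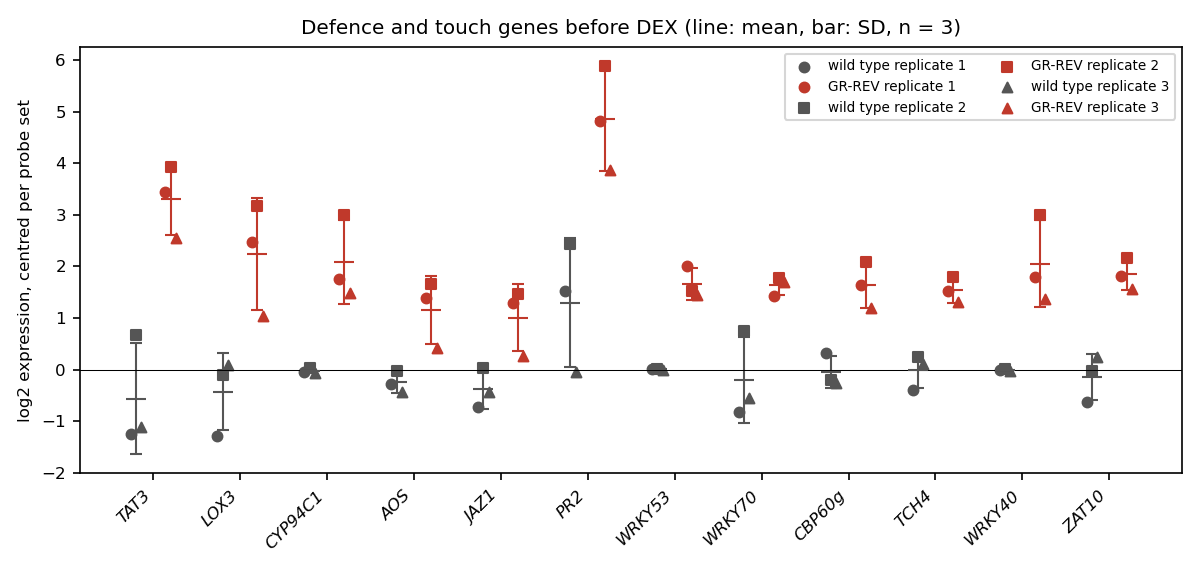
Log2 expression (vertical axis, centred per probe set) of 12 defence and touch genes in each 0 min array; grey marks are the wild-type replicates, red marks the GR-REV replicates, with lines for the mean and bars for the SD (n = 3). In each of the 12 genes the red marks lie above the grey ones, and for all but WRKY70 GR-REV replicate 3 is the lowest of its group.

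Touch and wound genes are transcribed within minutes of mechanical disturbance and many encode calcium-binding proteins or transcription factors. Of 14 tested, 11 were higher, 0 lower, and the median difference was 1.05. TCH4, a xyloglucan-modifying wall enzyme, stood at -0.40, 0.25 and 0.11 in wild type and at 1.52, 1.80 and 1.30 in GR-REV. TCH3, a calmodulin-like protein, stood at -0.08, 0.33 and 0.08 against 1.27, 1.23 and 1.01. Both showed a clear gap between the groups, with GR-REV arrays close to each other.

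Several transcription factor genes of the group were higher. WRKY40 was at -0.00, 0.01 and -0.02 in wild type and at 1.79, 2.99 and 1.36 in GR-REV, and the zinc-finger gene ZAT10 at -0.63, -0.03 and 0.24 against 1.82, 2.16 and 1.55. SZF1, another zinc-finger gene, was higher by 1.03 ± 0.17 (limma adjusted p = 5.42e-05), CML38, calmodulin-like, by 1.43, ERF6 by 1.14 and WRKY33 by 1.28. EXO70B2 (0.42), ERF4 (0.26) and ERF5 (0.20) did not pass. The count fell from 11 to 6 without GR-REV replicate 2 and to 7 without wild-type replicate 1, and it was 6 after quantile normalisation and 6 with the spread of the 6 arrays alone.

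The salicylate list covers the hormone of defence against biotrophic pathogens, its synthesis and its response genes. Of 23 tested, 10 were higher and 1 lower, with a median of 0.50. PR2 (BGL2), a beta-1,3-glucanase secreted in defence, stood at 1.52, 2.43 and -0.06 in wild type and at 4.83, 5.88 and 3.87 in GR-REV. Wild type itself varied in this gene, but its highest array was below the lowest of GR-REV.

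Regulators made up most of the other higher members. CBP60g, a transcription factor gene for salicylate synthesis, stood at 0.32, -0.19 and -0.27 in wild type and at 1.65, 2.09 and 1.19 in GR-REV. WRKY53 stood at 0.01, 0.01 and -0.01 against 2.0, 1.52 and 1.44, and WRKY70 at -0.82, 0.74 and -0.54 against 1.42, 1.78 and 1.71. WRKY18 was higher by 1.02, WRKY46 by 0.88, SARD1, the partner of CBP60g, by 1.03, and UGT74F2, a salicylate glucosyltransferase, by 0.63.

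Members that define the list were not all among the higher ones. PR1, the most used salicylate marker, had a difference of -0.57, and ICS1, which makes the precursor, one of 0.34; neither passed. EDS1 (0.15), PAD4 (-0.07) and NPR1 (0.07) did not pass either. The 1 lower member was FMO1, which makes the mobile defence signal N-hydroxypipecolic acid, at -1.46; it is named after its value was seen. With the spread of the 6 arrays alone 6 members were higher. The median of 0.50 became 0.28 after quantile normalisation and 0.33 without GR-REV replicate 2.

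Gene families named by symbol showed where the higher defence genes lay. Among 39 WRKY genes, a plant transcription factor family prominent in immunity, 14 were higher and 3 lower, with a median of 0.29. The count of 14 fell to 8 after quantile normalisation, to 8 without GR-REV replicate 1, to 9 without GR-REV replicate 2, to 9 without wild-type replicate 2 and to 9 with the spread of the 6 arrays alone. WRKY48 was higher by 1.56, while WRKY36 (-1.45) and WRKY65 (-0.63) were lower. Of 25 receptor-like proteins, cell-surface receptors without a kinase domain, 9 were higher and 1 lower.

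RLP21 stood at 0.56, 0.26 and -0.01 in wild type and at 2.99, 2.42 and 3.46 in GR-REV. RLP6 stood at -1.16, -0.21 and -0.01 against 3.08, 2.79 and 2.17. RLP40 stood at -0.01, -0.01 and -0.04 against 2.56, 4.32 and 1.26, a wider spread among the transgenic arrays. The 1 lower member was RLP44 (-0.62), which takes part in cell wall sensing.

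Among 22 cysteine-rich receptor-like kinases 6 were higher and 2 lower, although the family median was near 0. CRK14 stood at -0.16, 0.77 and 0.16 in wild type and at 1.85, 3.24 and 2.57 in GR-REV, and CRK12 at 0.83, 1.2 and -0.05 against 2.75, 2.91 and 2.62. CRK25 (-1.45) and CRK3 (-0.54) were the lower ones. Of 32 NAC transcription factors 8 were higher and 2 lower, and of 13 ERF factors 4 were higher and 0 lower. The NAC count fell to 5 without wild-type replicate 1 or GR-REV replicate 2 and to 4 with the spread of the 6 arrays alone, a fit in which 5 receptor-like proteins were higher. NAC019, a stress and jasmonate-related NAC gene, stood at -0.61, -0.16 and -0.70 in wild type and at 3.51, 4.61 and 0.71 in GR-REV, so replicate 3 again lay far below the others.

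Further genes among the 20 with the largest upward differences came from several groups. SAG29, a sugar transporter of the SWEET family named for senescence, stood at 0.08, 2.01 and 1.56 in wild type and at 4.96, 4.45 and 4.62 in GR-REV. TH8, a thioredoxin, was higher by 3.38 ± 0.61, CML41, calmodulin-like, by 3.25 ± 0.48, and the glycosyltransferase UGT76E12 by 3.05 ± 0.82, with limma adjusted p of 0.000175, 8.27e-06 and 0.00951. ELI3-2, an elicitor-activated gene, was higher by 2.77, and BCB, a blue copper-binding protein, by 2.71. AT5G10760 (AED1), an apoplastic protein gene that depends on EDS1, stood at 0.42, 0.98 and -0.06 against 3.51, 2.75 and 3.62. Of the loci without a symbol, AT1G35710 differed by 3.45, AT1G10585 by 3.31, AT1G54020 by 3.23, AT2G38240 by 2.62, AT5G24210 by 2.57 and AT2G42360 by 2.56. Without GR-REV replicate 2 the differences of UGT76E12 (2.26), ELI3-2 (1.88), AT2G38240 (2.06) and AT1G54020 (2.49) no longer passed, with limma adjusted p of 0.094, 0.0769, 0.0659 and 0.0901. AT1G54020 also missed the threshold without GR-REV replicate 1 (2.91, adjusted p = 0.0512).

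Smaller groups held 3 to 5 higher genes each, where 6.64% of all genes were higher. In the camalexin and indole glucosinolate list 3 of 16 were higher, among them PAD3 and CYP71A13 of camalexin synthesis (2.1 and 1.82), and 1 was lower, IGMT1 (-1.23). Of 12 oxidative stress genes 5 were higher and 1 lower; AOX1A, the mitochondrial alternative oxidase, stood at -1.49, -0.34 and -0.02 in wild type and at 0.66, 1.41 and 0.43 in GR-REV. That count fell to 3 without wild-type replicate 1 and to 2 with the spread of the 6 arrays alone. Of 9 senescence genes 3 were higher, ORE1 by 1.21, PPH by 0.55 and SAG29.

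Late steps of anthocyanin synthesis were higher while early flavonoid steps were not past the test. Of 14 flavonoid genes 4 were higher: DFR by 1.53, GSTF12 by 1.81, UGT79B1 by 1.44 and AT4G14090 by 1.86. CHS (-0.30), chalcone isomerase (AT3G55120, -0.19) and F3H (-0.32) did not pass. DFR overlapped between the groups, at 2.08, 2.51 and 0.27 in wild type and 3.75, 3.44 and 2.25 in GR-REV.

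Heat shock and protein folding genes were mostly not past the test, with 2 of 16 and 2 of 20 higher. HSP17.6II, a small heat shock protein, was the exception in size, at -0.21, 0.37 and -0.09 in wild type and 2.05, 2.21 and 2.08 in GR-REV. In the folding list of the endoplasmic reticulum, CRT3, a calreticulin, was higher by 0.47 and P58IPK, a co-chaperone, by 0.55. In this list 12 of 20 genes lay wholly above wild type, against 11.9% of all genes, and 10 were higher and 0 lower at an unadjusted p of 0.05.

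The Casparian strip is a lignin band in the endodermis that seals the path between its cells; CASP proteins mark the place, and ESB1 and the peroxidase PER64 help to build it. Of 15 genes tested in the list of the strip and of suberin, 6 were lower and 0 higher, with a median of -0.46; CASP1, CASP2, CASP4, PER64 and ESB1 were among the lower ones. CASP4 stood at 0.01, -0.52 and 0.49 in wild type and at -1.85, -2.83 and -2.28 in GR-REV. CASP1 stood at -0.51, -0.46 and 0.08 against -1.73, -1.50 and -2.07. The groups were apart in all 6, where 15.3% of all genes had this separation downward, and 8.39% were lower by the test.

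The other strip genes were similar. CASP2 stood at -0.69, -0.57 and -0.06 in wild type and at -1.97, -2.14 and -2.14 in GR-REV, again with a clear gap. PER64 was lower by a log2 difference of -1.46 ± 0.23 and ESB1 by one of -1.21 ± 0.17 (limma adjusted p = 2.12e-05 and 4.02e-06). Genes of suberin, the waxy layer that the endodermis deposits later, did not pass: ASFT was at -0.46, FAR4 at -0.51, CYP86A1 at -0.27 and ABCG6 at 0.06. MYB36, the factor that switches on the CASP genes, was at -0.36 and not past the test. The count of 6 was the same without each array in turn, after quantile normalisation and with the spread of the 6 arrays alone. The list median became -0.27 without wild-type replicate 3.

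Root hair genes were lower as well, with more spread in wild type. Of 10 tested 5 were lower and 0 higher, with a median of -0.89, and of 7 genes named ROOT HAIR SPECIFIC 4 were lower. EXPA18, an expansin of root hairs, stood at -1.59, -1.53 and -0.25 in wild type and at -2.45, -2.46 and -4.52 in GR-REV. COW1, a phosphatidylinositol transfer protein of hair tips, stood at -0.94, -1.37 and -0.60 against -2.32, -2.34 and -3.34. The proline-rich wall protein PRP3 stood at -1.94, -2.13 and -0.79 against -3.33, -3.64 and -4.34.

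In these genes wild-type replicate 3 was the highest of its group and GR-REV replicate 3 the lowest. RHS12 was lower by a log2 difference of -2.10 ± 0.39, RHS18 by one of -2.16 ± 0.71, RHS19 by -2.02 and RHS13 by -1.51. RSL4, a master regulator of hair growth, was lower by -0.93 with overlapping groups, and RHD6 (-0.69), LRX1 (-0.52), RHD2 (0.29) and GL2 (-0.11) did not pass. The count of 5 fell to 3 without wild-type replicate 3, to 3 without GR-REV replicate 3, to 2 after quantile normalisation and to 2 with the spread of the 6 arrays alone. The median of -0.89 became -0.50 without wild-type replicate 3 and -0.28 after quantile normalisation. RHS18 was no longer past the test without wild-type replicate 3 (-1.49, limma adjusted p = 0.226), GR-REV replicate 2 (-2.04, 0.102) or GR-REV replicate 3 (-1.74, 0.149). The median of the 10 genes also differed between the wild types, by -1.65 in that of the GR-REV day minus that of the KAN1-GR day.

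Root marker genes outside these cell types could be read for few members. Of 12 root identity and meristem genes 4 were tested; TMO5, a vascular regulator, was lower (-0.81 ± 0.15, limma adjusted p = 0.000262), and SHR (-0.31), SCR (0.11) and PYK10 (-0.17) did not pass.

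**Figure D2:**
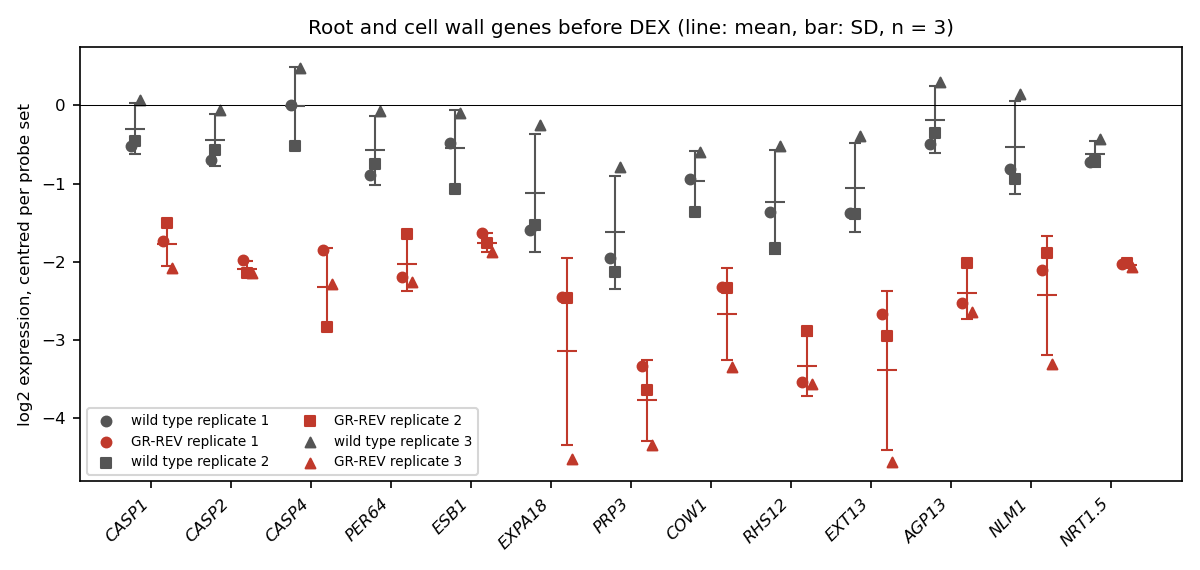
Log2 expression (vertical axis, centred per probe set) of 13 root and wall genes in each 0 min array, with wild-type replicates in grey, GR-REV replicates in red, lines for the mean and bars for the SD (n = 3). In all 13 the red marks lie below the grey ones; CASP1, CASP2 and NRT1.5 are tight within each group, whereas EXPA18, PRP3 and EXT13 spread widely, with wild-type replicate 3 on top.

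Cell wall genes were lower in several families. Of 16 alpha-expansins, which loosen walls during growth, 7 were lower and 0 higher, with a median of -0.58, which became -0.36 after quantile normalisation. EXPA8 stood at 0.42, -0.22 and 0.97 in wild type and at -1.03, -1.51 and -1.04 in GR-REV, EXPA11 fell by 1.07, EXPA5 by 1.04, EXPA15 by 0.78 and EXPA1 by 0.71. EXPA7 (-0.86) and EXPA18 are members of the root hair list as well.

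Of 25 arabinogalactan proteins 9 were lower and 3 higher. AGP13 stood at -0.50, -0.35 and 0.31 in wild type and at -2.53, -2.02 and -2.64 in GR-REV, and AGP22 at -0.60, -0.69 and -0.11 against -1.82, -1.93 and -2.27. AGP14 fell by 1.19, AGP24 by 1.22 and AGP4 by 1.06 on the log2 scale, whereas AGP5 was higher by 2.0 and AGP18 by 0.78. Of 6 extensins, structural wall proteins, EXT10, EXT13 and EXT6 were lower (-2.17, -2.34 and -1.84) and EXT4 was higher (1.13). The extensins also differed between the wild types, with a median of -1.68 for the GR-REV day minus the KAN1-GR day. That median was 0.49 for the alpha-expansins and -0.07 for the arabinogalactan proteins. EXT13 (-1.74), EXT10 (-1.67) and AGP3 (-1.96) passed the test between the wild types, and AGP13 (-0.36) did not. Of 24 xyloglucan endotransglucosylases 6 were lower and 3 higher, so this wall family was divided: XTH14 (-1.68), XTH12 (-1.98), XTH15 (-0.82) and XTH8 (-0.83) were among the lower ones and XTH18 (1.34), XTH11 (2.02) and XTH28 (0.44) were the higher ones.

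Transport genes were lower in part. Of 19 aquaporins, channels for water and small solutes, 8 were lower and 1 higher. NLM1 stood at -0.82, -0.94 and 0.15 in wild type and at -2.10, -1.89 and -3.30 in GR-REV, and TIP4;1 at -0.10, -0.33 and 0.10 against -1.10, -1.47 and -2.32. PIP2;4 fell by 1.25 and PIP1;5 by 0.81, while PIP2;5 was the higher one (0.46). With quantile normalisation, and likewise with the spread of the 6 arrays alone, 5 were lower.

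Of 24 UMAMIT genes, many of which encode amino acid exporters, 7 were lower and 0 higher. UMAMIT17 stood at 0.12, -0.41 and -0.12 in wild type and at -3.36, -1.92 and -3.33 in GR-REV, and the other 6 fell by between 0.40 and 0.83. After quantile normalisation 3 members of the family were lower.

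The nitrate list held 6 lower and 1 higher genes of 17. NRT1.5, which loads nitrate into the root xylem, stood at -0.73, -0.71 and -0.43 in wild type and at -2.03, -2.02 and -2.07 in GR-REV, a difference of -1.42 ± 0.14 (limma adjusted p = 1.07e-08). The ammonium transporter AMT1.2 stood at -0.48, -0.23 and 0.10 against -1.14, -1.52 and -1.39. GLN1.1, a cytosolic glutamine synthetase, was the higher one (0.54), and the nitrate reductases NIA1 (-0.34) and NIA2 (-0.10) did not pass. The count of 6 fell to 2 without wild-type replicate 3, to 2 after quantile normalisation and to 2 with the spread of the 6 arrays alone. PHO1, which loads phosphate into the xylem, was the only one of 10 phosphate genes past the test, at 0.07, 0.00 and -0.10 in wild type and -0.93, -0.81 and -0.78 in GR-REV.

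Aliphatic glucosinolates are defence compounds made from methionine; MYB28 and MYB29 are the factors that switch on their synthesis. Of 12 genes tested 4 were lower and 0 higher. MYB28 stood at 0.55, -0.00 and 0.31 in wild type and at -0.68, -0.85 and -0.68 in GR-REV, and MYB29 at -0.20, -0.03 and -0.17 against -1.44, -0.96 and -2.39. MAM3, of side-chain elongation, fell by 0.52 and SOT18, a sulfotransferase, by 0.44. With the spread of the 6 arrays alone 2 were lower.

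The remaining loci of the 20 with the largest downward differences were AT4G33720 (-3.33), AT1G64590 (-3.09), AT3G29410 (-2.38), AT5G20790 (-2.30), AT4G11210 (-2.30), AT1G33700 (-2.06), AT5G04120 (-2.04), AT5G15180 (-2.04), AT5G04960 (-2.04) and AT1G03410 (-2.02), with AGP3 (-2.04) and the cytochrome P450 gene CYP81F3 (-2.08). AT1G64590 stood at -0.35, -0.53 and -0.63 in wild type and -3.80, -3.34 and -3.65 in GR-REV, far apart and tight within each group. AT4G33720 was not past the test without wild-type replicate 1 (-3.30), wild-type replicate 2 (-3.06) or GR-REV replicate 3 (-2.70), and AT5G20790 without any array but wild-type replicate 2, at values from -2.47 to -1.80. AT5G04120 missed it without wild-type replicate 3 (-1.57) or GR-REV replicate 2 (-1.99), and AT5G04960 without wild-type replicate 3 (-1.44).

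Nuclear photosynthesis genes, used here as the markers of green tissue, were lower by little but in the same direction. Of 26 tested 17 were lower and 0 higher, all 26 differences were negative, from -0.56 to -0.13, and in 23 the groups did not overlap. Over all genes 8.39% were lower and 15.3% lay wholly below wild type. PSBO1, of the oxygen-evolving complex, stood at 0.12, -0.03 and 0.08 in wild type and at -0.29, -0.35 and -0.42 in GR-REV. LHCA1, an antenna protein of photosystem I, stood at 0.28, 0.21 and -0.19 against -0.50, -0.45 and -0.23. RCA, which activates Rubisco, fell by 0.31 and PRK, an enzyme of the Calvin cycle, by 0.52.

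This count was among the least stable. With the spread taken from the 6 arrays alone 0 of the 26 passed by limma (17 at an unadjusted p of 0.05), and 5 passed after quantile normalisation. Without wild-type replicate 1, GR-REV replicate 1 or GR-REV replicate 2, the counts were 5, 6 and 8. The list median was 0.16, 0.10 and 0.01 in the wild-type arrays and -0.27, -0.28 and -0.12 in the GR-REV arrays.

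Auxin and cytokinin genes had a few lower members. Of 19 auxin genes the carriers PIN3 (-0.53), AUX1 (-0.51) and LAX3 (-0.47) and the repressor IAA3 (-0.61) were lower, and GH3.3, which conjugates auxin, was higher (1.18). PIN3 stood at 0.28, 0.37 and 0.24 in wild type and at -0.24, -0.21 and -0.25 in GR-REV, a small but uniform difference. Of 13 cytokinin genes 4 were lower, the response regulators ARR8 (-0.99) and ARR9 (-0.51) among them. The cell cycle list, used as the marker of dividing tissue, had 1 lower and 0 higher of 17; the lower one, SIM, encodes an inhibitor of division and was at -0.92.

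The other lists held at most 3 genes past the test in either direction, where 6.64% of all genes were higher and 8.39% lower. The circadian clock had 0 of 16 past the test by limma, and 3 at an unadjusted p of 0.05; LHY, its morning gene, was at -0.66 and not past the test. The number higher and lower was 2 and 1 of 16 for ethylene, 1 and 1 of 16 for phenylpropanoids and lignin, 1 and 2 of 17 for iron, and 0 and 2 of 11 for copper. It was 1 and 0 of 12 for sulfate, 1 and 3 of 18 for sugar starvation, 1 and 0 of 13 for low oxygen, 3 and 0 of 14 for dehydration and abscisic acid, and 1 and 1 of 11 for gibberellin and brassinosteroid. In the sugar starvation list 10 of 18 genes lay wholly below wild type, against 15.3% of all genes, with a median of -0.26. In KAN1-GR at 0 min 11 of these 18 were lower and 2 higher, with a median of -0.98. The wild types differed in this list by a median of -0.76, GR-REV day minus KAN1-GR day. Single members were large: GPT2, a plastid sugar phosphate translocator, was higher by 2.23, BGLU28 of the sulfate list by 1.61, and the iron-related transporter ABCG37 lower (-1.14).

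Broad families held called genes in both directions, apart from the LBD factors. Over all genes 6.64% were higher and 8.39% were lower. The numbers higher and lower were 10 and 13 of 107 cytochromes P450, 4 and 5 of 49 MYB factors, 4 and 4 of 39 UDP-glycosyltransferases, 2 and 5 of 22 tau-class glutathione transferases, 3 and 3 of 16 beta-glucosidases and 0 and 2 of 9 LBD factors. The stress-related GSTU11 (2.36) and GSTU4 (1.98) were the 2 higher glutathione transferases, and GSTU28 (-1.95) the lowest of the lower ones. In that family 9 of 22 genes lay wholly below wild type, against 15.3% of all genes, and the median was -0.23.

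**Figure D3:**
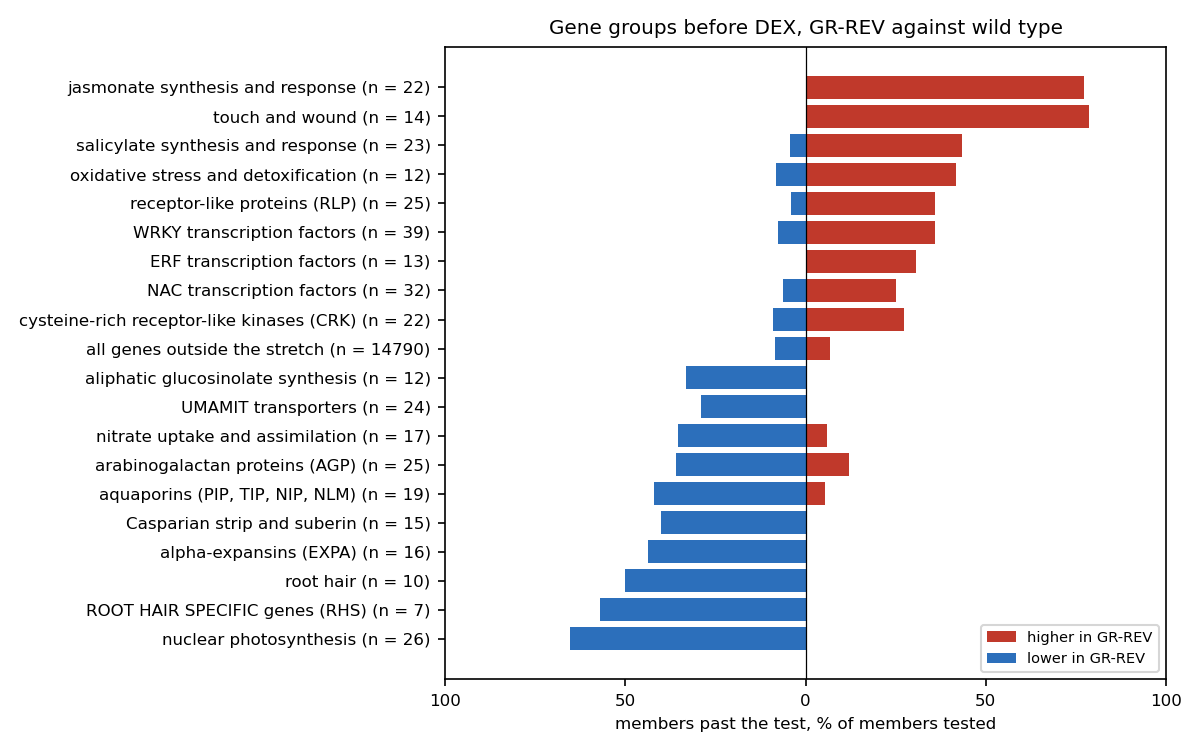
Share of the tested members of 19 gene groups, and of all 14790 genes outside the chromosome 3 stretch, that passed the test at 0 min; red bars to the right are higher in GR-REV, blue bars to the left lower, and n is the number of genes tested. The jasmonate and touch bars reach 17 of 22 and 11 of 14 genes, nuclear photosynthesis 17 of 26 in the other direction, against 6.64% and 8.39% for all genes.

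The line was measured again in separate flasks at 30, 60 and 120 min, each against wild type of the same time, so that no array is shared with the 0 min comparison, although DEX was present in all of these flasks. Outside the stretch 1178 genes (7.96%) were called at 30 min, 1760 (11.9%) at 60 min and 2135 (14.4%) at 120 min. At 30 min the count was 762 without wild-type replicate 1, 713 without wild-type replicate 3 and 778 without GR-REV replicate 3 of that time, and at 120 min 1312 without wild-type replicate 2. Of the 982 genes higher at 0 min, 215 were also higher at 30 min, which is 21.9% of the first list and 41.3% of the 520 higher at 30 min (3.52% of all genes). At 120 min the overlap was 174 genes, 17.7% of the 982 and 29.7% of the 586 (3.96% of all genes). At 60 min 561 genes were higher (3.79%) and 1199 lower (8.11%), of which 144 and 416 were also called that way at 0 min, 25.7% and 34.7% of the later lists and 14.7% and 33.5% of the earlier ones. Of the 1241 lower genes, 292 were also lower at 30 min (23.5%, and 44.4% of the 658, which are 4.45% of all genes) and 525 at 120 min (42.3%, and 33.9% of the 1549, which are 10.5%).

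Of the 982 genes higher at 0 min, 77 were higher at all 4 times. Of the 1241 lower ones, 155 were lower at all 4 times, both among 14790 genes tested. The first include TAT3, PR2, SAG29, TH8, RLP21, RLP32, WRKY18, WRKY53 and ZPR1. The others include CASP1, CASP2, PER64, ESB1, EXPA1, EXPA5, EXPA8, AGP13, AGP14, AGP22, NRT1.5, AMT1.2, PHO1, PIN3, UMAMIT11 and UMAMIT17.

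Casparian strip genes stayed lower at the later times. In the list of 15, 6 were lower at 0 min, 6 at 30 min, 10 at 60 min and 10 at 120 min, with medians of -0.46, -0.47, -0.90 and -0.90. CASP1 differed by -1.47 at 0 min, then by -0.68, -0.90 and -1.16 at the later times, each past the test. CASP4 was not past it at 30 min (-0.49). NRT1.5 differed by -1.42, -1.41, -1.21 and -2.00, and UMAMIT17 by -2.73, -1.83, -2.39 and -3.40.

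Salicylate genes stayed higher in part, with 10, 6, 7 and 5 of 23 at the 4 times and medians of 0.50, 0.42, 0.28 and 0.13. WRKY53 reached 3.84 at 30 min and was at 1.28 at 120 min, PR2 went from 3.56 to 2.24, and WRKY70 was no longer past the test at 120 min (0.48). SAG29 was 4.28, 4.87 and 6.48 above wild type at the later times.

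Fewer jasmonate and touch genes passed the test at the later times than at 0 min. The jasmonate list had 5, 3 and 4 of 22 higher at 30, 60 and 120 min, with medians of 0.78, 0.52 and 0.66, and 13, 5 and 12 at an unadjusted p of 0.05, against 17 at 0 min. The touch list had 0 higher at each of the 3 times, with medians of 0.17, 0.02 and 0.18, and 5 of its 14 genes differed more at 0 min than in the mean of the 3 later times by limma's test of that contrast, which called 2.68% of all genes in this direction; its count over all genes in both directions fell from 680 (4.60%) to 450 without wild-type replicate 1 at 0 min. For the jasmonate list that test called 1 of 22, so a change with time was not shown for most of its genes. At an unadjusted p of 0.05 the touch genes higher at the 3 times were 0, 0 and 1. In wild type the median of the touch genes was -0.15, 0.01 and -0.00 in the 0 min arrays and 0.22, 0.76 and 0.26 in the 30 min arrays. Photosynthesis genes had 0 of 26 lower by limma at each later time, and 1, 2 and 0 at an unadjusted p of 0.05.

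**Figure D4:**
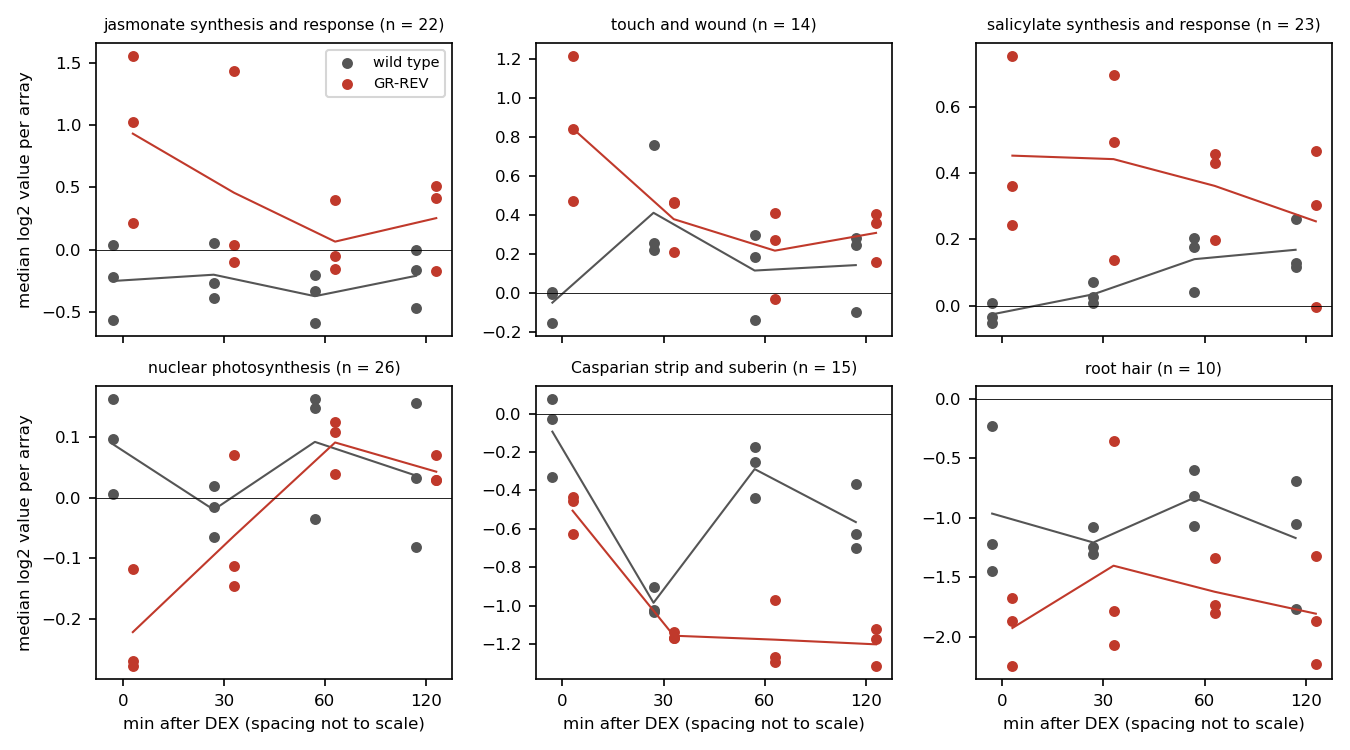
Median log2 value of 6 gene lists in each of the 24 arrays of day one (vertical axis) at 0, 30, 60 and 120 min after DEX (horizontal axis, spacing not to scale), wild type in grey and GR-REV in red, with lines through the group means; n is the number of genes. The jasmonate medians at 0 min lie at 1.03, 1.56 and 0.21 in GR-REV against -0.57, 0.03 and -0.22 in wild type, and the Casparian medians of GR-REV are below wild type at each time.

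The second line, 35S::KAN1-GR, shows which of these differences were shared by another seedling line with a 35S-driven GR fusion before DEX. Its comparison with wild type of its own day shares no array with that of GR-REV. There 743 genes outside the stretch were higher (5.02%) and 863 lower (5.84%). The test of the GR-REV difference minus the KAN1-GR difference called 924 genes in the positive direction (6.25%) and 1166 in the negative one (7.88%), 2090 in all, against 3495 after quantile normalisation.

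Jasmonate genes differed from wild type in opposite directions in the lines. In KAN1-GR 11 of the 22 were lower and 0 higher, with a median of -0.93 where GR-REV had 1.38, and for 18 of 22 the difference between the lines passed the test. TAT3 was at -3.28 in KAN1-GR and LOX2 at -1.03, both past the test. The wild type grown with GR-REV was itself below that grown with KAN1-GR in this list, with a median difference of -0.51.

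Touch genes had a median of -0.36 in KAN1-GR with 3 of 14 lower, and 11 of 14 differed between the lines. For salicylate genes 9 of 23 differed, and WRKY53 was lower in KAN1-GR (-1.46). Of the Casparian list 0 of 15 passed in KAN1-GR in either direction by limma (2 higher and 0 lower at an unadjusted p of 0.05), the median was 0.07, and 6 of 15 were lower in GR-REV by the test of the difference; CASP4 differed between the lines by -2.51 and CASP1 by -1.45. NRT1.5 (-1.60) and UMAMIT17 (-3.05) were also lower in GR-REV by that test.

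Root hair genes did not separate the lines in that way. In KAN1-GR 5 of 10 were lower, with a median of -1.14, and the test of the difference called 0 lower and 1 higher in GR-REV, RSL4 (1.32). For nuclear photosynthesis 0 of 26 passed in KAN1-GR by limma, also at an unadjusted p of 0.05, and 8 were lower in GR-REV by the test of the difference. Of the alpha-expansins 8 of 16 were lower in GR-REV by that test; EXPA8 was higher in KAN1-GR (1.86) and lower in GR-REV (-1.58).

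**Figure D5:**
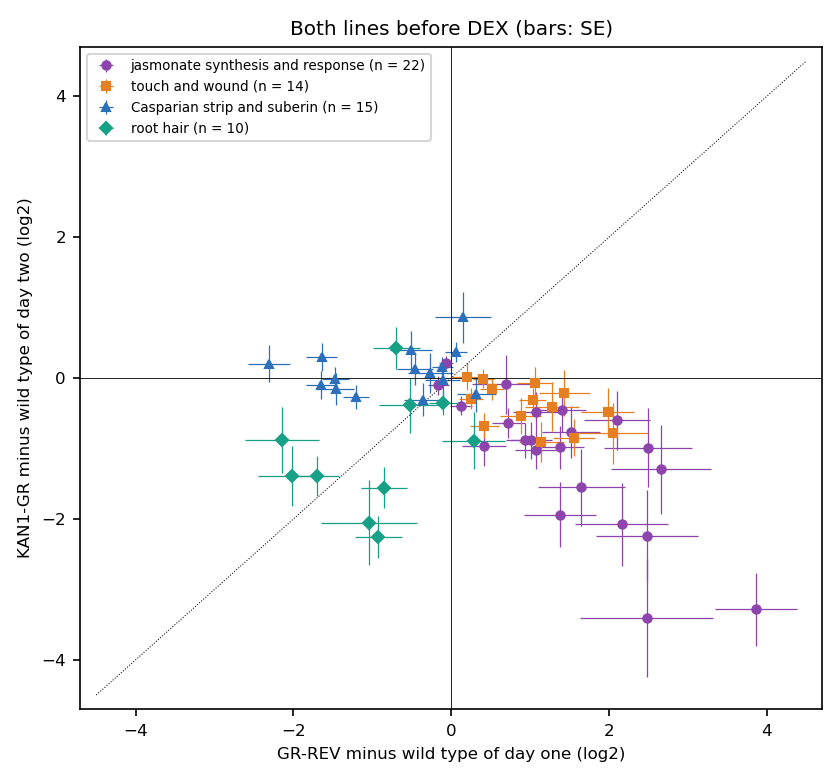
Log2 difference from wild type at 0 min in GR-REV (horizontal axis) and KAN1-GR (vertical axis) for the genes of 4 lists, with SE bars; the dotted line marks equal differences. Most jasmonate genes lie to the lower right, with TAT3 at 3.87 in GR-REV and -3.28 in KAN1-GR, Casparian genes extend to the left at heights near 0, and most root hair genes lie below 0 on both axes.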

How the data were processed

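Affymetrix arrays of 42 whole-seedling RNA samples were analysed, of which 6 make the main comparison. The deposited values are log2 expression made by the authors with GCRMA, per the submitters' processing notes, and centred per probe set on the median of the wild-type 0 min arrays, as the deposited values themselves show. A second deposited table holds the authors' ANOVA p-value per probe set; it served only to choose the probe sets tested, and how the authors chose which to give a p-value is not given in the sources used here. Of 22810 probe sets, 16129 had one and were no control; 15138 of these name 1 gene. Gene loci come from the deposited table and symbols from RefSeq, which matched 14960 of 15007 genes. Precision is limited by having 3 arrays a group; the 0 min difference had a median SE of 0.15.

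A mean per group (14 groups of 3) was fitted to all 42 arrays with limma 3.58.1 in R 4.3.3, with moderated variances (28 residual degrees of freedom) and p-values adjusted by Benjamini-Hochberg across those 16129 at a threshold of 0.05. On simulated data of the 0 min comparison (16129 probe sets), 40% of changes of 0.5, 96% of 1, 100% of 2 and 82% of -1 on the log2 scale were recovered, with 9 false calls. The simulated noise was independent and had the same spread in every group, and 50 probe sets were changed for each size. The false calls therefore do not measure the error rate where arrays or groups differ in spread. The members and the 32 gene lists and 18 families were chosen with earlier results of these data known. Named genes are REV, the 20 largest differences each way among those past the test, up to 8 members per list or family by adjusted p, and list members not past it. Alternatives were quantile and median normalisation, other variance models, fewer arrays, pooled wild types, a fold minimum, all probe sets, and leaving out each array. Both normalisations were run on the centred values. A withheld item is not reported here.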

Additional observations from a re-analysis of the deposited data

Results flagged for a closer look

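For 32 of the 41 genes named for REV and for size of difference, the GR-REV difference at 0 min differed from the KAN1-GR difference by limma's test of that interaction, adjusted over all probe sets. Positive values, GR-REV minus KAN1-GR on the log2 scale, were found for TAT3 (7.15), AT1G10585 (5.82), AT1G54020 (5.67), BCB (4.83), NAC019 (4.66), TH8 (4.44), UGT76E12 (4.35), AT5G24210 (4.33), RLP6 (4.09), REV (4.01), LOX3 (3.96), BGL2 (3.93), AT1G35710 (3.64), AT2G38240 (3.48), CML41 (3.32), RLP40 (3.32), ELI3-2 (3.02), AT5G10760 (2.89), RLP21 (2.62) and AT2G42360 (2.55). Negative values were found for AT4G33720 (-6.1), AT5G20790 (-4.66), AT1G64590 (-3.61), AT5G04120 (-3.51), UMAMIT17 (-3.05), CASP4 (-2.51), CYP81F3 (-2.38), AGP13 (-2.32), AT5G15180 (-2.12), AT4G11210 (-2), EXT10 (-2) and AT1G03410 (-1.39). Line and growth day cannot be told apart beyond the wild type of each day.

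For 6 of the 41 genes the difference at 0 min differed from the mean of the 3 later times, in a contrast added after the values were seen. It was larger before DEX for RLP6 (2.29), AT2G42360 (2.2), CML41 (1.91) and AT1G35710 (1.37), and more negative for AT1G33700 (-1.44) and CASP4 (-1.13).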

How the results depend on the processing

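Among the 41 named genes none changed direction under any setting run; 12 of them missed the threshold with the 6 arrays alone, 10 after quantile normalisation, and 7 or fewer under each other setting except the replicate block. Quantile normalisation gave 961 genes called outside the stretch (478 higher, 483 lower; 893 shared with the 2223), 569, 908 and 1070 at 30, 60 and 120 min, 3495 between the lines and 274 between 0 min and later. It gave 6 touch and 8 WRKY genes higher, and 5 photosynthesis, 2 root hair, 2 nitrate, 5 aquaporin and 3 UMAMIT genes lower. The 6 arrays alone, a fit with fewer samples, gave 703 (320 higher, 383 lower), with 3 jasmonate, 6 touch, 6 salicylate, 2 oxidative stress, 9 WRKY, 5 receptor-like protein and 4 NAC genes higher, and 0 photosynthesis, 2 root hair, 2 nitrate, 5 aquaporin and 2 aliphatic glucosinolate genes lower. A 2-fold minimum gave 523 (283 and 240), and wild type pooled over both days gave 3915 (1906 and 2009). The cause of these shifts was not tested.

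The replicate numbers did not pair the arrays (correlations of deviations -0.08, 0.17 and -0.18); with replicate number as a block on the 6 arrays 229 genes were called (136 higher, 93 lower), and 20 of the 41 named genes missed the threshold. Leaving out each array in turn gave 1551 to 2119 genes called, 688 to 1038 higher and 843 to 1132 lower. By group the counts ran from 7 to 17 for jasmonate, 6 to 10 for touch, 7 to 11 for salicylate, 3 to 7 for oxidative stress, 8 to 16 for WRKY, 6 to 8 for receptor-like protein and 5 to 8 for NAC genes. They ran from 5 to 16 for photosynthesis, 3 to 6 for root hair, 2 to 6 for nitrate, 5 to 8 for expansin, 6 to 9 for arabinogalactan, 6 to 10 for aquaporin, 5 to 8 for UMAMIT and 3 to 6 for aliphatic glucosinolate genes, and stayed at 6 for the Casparian list. The comparison between lines gave 1466 to 2178, that with later times 450 to 820, and the later times 713 to 1175 (762 without wild-type replicate 1 and 778 without GR-REV replicate 3 of 30 min), 1286 to 1498 and 1312 to 2268.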
